A study of Mus musculus with 2 samples.

Results

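Adenylate kinases and the subunits of AMP-activated protein kinase (AMPK) were described in the heart through 8 genes chosen by name: the adenylate kinases Ak1 and Ak3, the AMPK alpha subunits Prkaa1 and Prkaa2, the beta subunits Prkab1 and Prkab2, and the gamma subunits Prkag1 and Prkag2. These 8 were among 14514 annotated nuclear genes with at least 1 read, and every read assigned to them was used whatever its transcript class. The samples were hearts of male B6CASTF1/J mice, first-generation hybrids between a C57BL laboratory strain and the wild-derived strain CAST, aged 2 months and given no treatment named in the labels. They formed 1 group of 2 long-read RNA libraries, each from 2 µg of RNA, in which a read is meant to span a transcript from end to end. The labels gave the libraries, here replicate 1 and replicate 2, separate biosamples, but a second text field put the same animal number on both, so what separates them is the spread of a pair of libraries and may be technical.

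Adenylate kinases move phosphate between adenine nucleotides: they turn a pair of ADP molecules into ATP and AMP, or run in reverse. AMP, which rises when ATP is spent, is sensed by AMPK, a heterotrimer of a catalytic alpha subunit, a scaffolding beta subunit that can bind glycogen, and a gamma subunit that binds adenine nucleotides. In heart muscle the kinase is known for raising glucose uptake and fatty acid oxidation when energy runs short, and inherited changes in human PRKAG2 cause a cardiomyopathy with glycogen storage.

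The 8 genes took 1062 of 430251 annotated nuclear reads in replicate 1 (0.247%) and 1673 of 629896 in replicate 2 (0.266%), spread over 53 and 64 transcript models. Levels are given in CPM, reads of a gene scaled to 1000000 reads of annotated nuclear genes. As a long read stands for 1 transcript, CPM is not divided by length and is compared between genes on that scale, with the length of the leading transcript beside it; how well long transcripts were recovered was not measured. A count of 0 allows up to 3 reads, or 6.97 CPM in replicate 1 and 4.76 CPM in replicate 2. Intervals cover counting error only. As whole hearts were sampled, fewer cells of a type and less RNA per cell cannot be told apart. All 9 cardiac markers were read, from Ryr2 at 121.6 CPM to Myh6, the alpha myosin heavy chain, at 32071 CPM. Of 10 skeletal muscle markers, 5 had no read: the fast myosins Myh1, Myh2 and Myh4, and also Tnnt3 and Pvalb. Of the other 5, Tnni2, Actn3 and Mylpf had at most 2 reads, while Ckm (7678 CPM) and Acta1 (370.3 CPM), which heart muscle also expresses, were read at high levels. Alb, made by liver, had none either.

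Ak1, the cytosolic adenylate kinase of muscle and red blood cells, held most of the reads. Its gene (ENSMUSG00000026817.14) lies on the plus strand at chr2:32621758-32635058 of the mouse build mm10. It had 864 reads in replicate 1 and 1396 in replicate 2, which is 2008 CPM (95% Poisson interval 1876 to 2147) and 2216 CPM (2101 to 2336), and a mean of 2112 ± 147 CPM (SD, n = 2). That mean was the 51st highest of all annotated nuclear genes. Nearly all of these reads belonged to Ak1-202, a transcript of 7 exons and 2063 bases with 194 codons, which had 788 and 1258 reads. Ak1-201, which begins with another first exon and has 210 codons, had no read in replicate 1 and 1 in replicate 2. Of 6 annotated Ak1 transcripts, these 2 were the ones with a read assigned to them.

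The Ak1 promoter window at the start of Ak1-202 is printed because the first intron of this transcript opened most spliced Ak1 reads. These were 809 of 853 in replicate 1 (94.8%) and 1281 of 1370 in replicate 2 (93.5%). Ak1-206 has the same first intron, and where single reads began was not measured. The sequence is from RefSeq on GRCm38.p6, within chr2:32625187-32625486 on the plus strand, and runs from 250 bases before the start to the 30th base after it. Capitals mark TATAAA.
Ak1: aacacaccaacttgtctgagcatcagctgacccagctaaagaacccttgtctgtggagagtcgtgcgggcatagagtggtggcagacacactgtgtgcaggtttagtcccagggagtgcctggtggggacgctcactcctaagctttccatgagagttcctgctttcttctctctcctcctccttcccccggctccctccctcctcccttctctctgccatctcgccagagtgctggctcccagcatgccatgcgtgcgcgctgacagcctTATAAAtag
TATAAA was looked for on both strands of 300-base windows, from 250 bases before each RefSeq start to 50 after it, along with GGGCGG, the core of the GC box, and CCAAT. In the Ak1 window it began 22 bases after the start. At least 1 TATAAA was found in 13.6% of 32851 such windows and in 1 of the 13 windows that matched the 8 genes. GGGCGG was found in 35.7% of all windows and in 7 of the 13, among them those of Ak3, Prkaa1, Prkaa2, Prkab2 and Prkag1, but in none of the Ak1 windows. The Ak1 window held 10 CpG dinucleotides and that of Prkaa1 held 52, against a median of 7 over all windows. A match is a description of the letters, not a binding site.

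Ak1 also had the most splice junctions that GENCODE M21 does not list, 22 of 33 such introns over the 8 genes, and 7 of the 22 were seen in both libraries. Most of those reads used a splice site a few bases from the annotated one. The count of introns was not adjusted for depth, and Ak1 held 864 of 1062 member reads in replicate 1 and 1396 of 1673 in replicate 2. Models with splice sites that M21 lacks held 3.82% and 3.37% of Ak1 reads. Over all annotated nuclear genes such models held 3.71% and 3.53%. In exon 2, in the 5′ untranslated region, an acceptor 2 bases downstream was used in 9 reads of replicate 1 and 13 of replicate 2. In exon 3, an acceptor 2 bases downstream had 9 and 8 reads, and a donor 4 bases upstream had 5 and 8. The latter pair of sites lies in coding sequence, and neither 2 nor 4 is a multiple of 3. The remaining 4 introns seen in both libraries also lay in the 5′ untranslated region. They had the donor of exon 1 moved downstream by 4 bases (2 and 9 reads), 49 bases (4 and 2) or 76 bases (1 and 4), or the acceptor of exon 2 moved upstream by 111 bases (1 and 3). The junctions of the first 3 are shown with 15 bases of each exon, read from the GENCODE transcript Ak1-202, with the bases left out by the shifted site in capitals. The first base of exon 2 is at chr2:32628451, that of exon 3 at chr2:32629849, and the last base of exon 3 at chr2:32629884.
Ak1 exon 1 to exon 2: cacaccctcccccagAGtgctgacctagct
Ak1 exon 2 to exon 3: tcagcaggatggaagAGaagctgaagaagg
Ak1 exon 3 to exon 4: tcatctttgtgGTGGgcggacctggctcag
In the first and second lines the left-out AG comes straight after another AG. A shifted acceptor and a read that dropped 1 of the AG pairs would give the same letters, and which of them occurred was not tested. An acceptor 15 bases downstream at exon 4, which GENCODE lists for Ak1-206, was used in 3 reads of replicate 1 and 0 of replicate 2. It keeps the frame, and the annotated acceptor had 834 and 1335 reads.

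Ak3, the GTP:AMP phosphotransferase of the mitochondrial matrix, was read far less. Its gene (ENSMUSG00000024782.7, chr19:29020833-29047961, minus strand) had 53 and 70 reads, or 123 CPM (92.3 to 161) and 111 CPM (86.6 to 140), with a mean of 117 ± 8.52 CPM (SD, n = 2). The intervals overlapped. Ak3-201, with 5 exons and 2809 bases, held 46 and 64 of the reads, and single-exon models of the class Genomic, which do not follow the gene's splice sites, held 4 and 5. Ak1 was therefore 94.2% (95% Clopper-Pearson interval 92.5 to 95.6) of the Ak1 and Ak3 reads in replicate 1 and 95.2% (94.0 to 96.3) in replicate 2. Exons of Cdc37l1 on the opposite strand overlap those of Ak3. As the assignment of strand to reads is not given in the sources used here, reads of the overlap cannot be told apart with certainty.

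**Figure D1:**
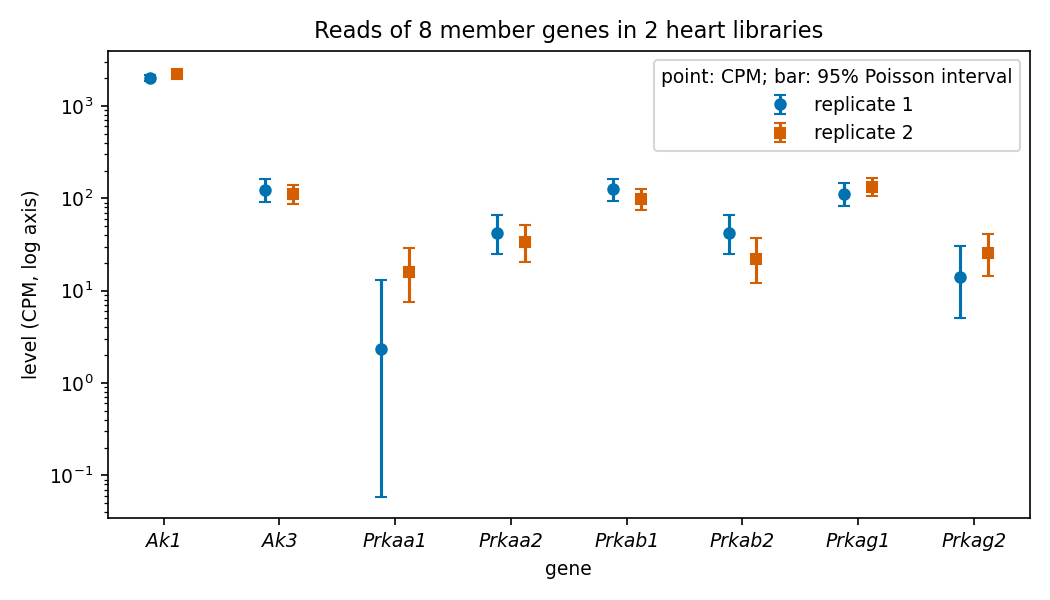
Level of each of the 8 genes (log axis, CPM) in replicate 1 (circles) and replicate 2 (squares), with 95% Poisson intervals as bars. Ak1 stands near 2112 CPM, Ak3, Prkab1 and Prkag1 near 100, and the other AMPK subunits below 50, with Prkaa1 lowest and its interval widest.

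Further adenylate kinases were lower than Ak1 or not read. Ak6, a nuclear member, had 27 and 61 reads (79.8 ± 24.1 CPM). Ak4, a mitochondrial matrix member, had 3 and 10 reads (11.4 ± 6.30 CPM). Ak5, Ak7, Ak8 and Ak9 had none in either library. The list also held enzymes that phosphorylate other nucleoside monophosphates and diphosphates. Of these, Nme2, a nucleoside diphosphate kinase, was highest at 633 ± 5.77 CPM, although its split from the adjoining, closely similar Nme1 is uncertain. Guk1, the guanylate kinase, followed at 135 ± 16.2 CPM.

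The catalytic alpha subunits were read mainly from Prkaa2, which encodes alpha2. Prkaa2 (ENSMUSG00000028518.8, chr4:105029874-105109890, minus strand) had 18 reads (41.8 CPM, 24.8 to 66.1) and 21 reads (33.3 CPM, 20.6 to 51.0), with a mean of 37.6 ± 6.01 CPM (SD, n = 2). Its annotated transcript, Prkaa2-201, is 7969 bases long, the longest of the leading transcripts of the 8 genes, and 12 and 17 reads carried all its introns. The other 6 and 4 reads were unspliced Genomic models. Prkaa1, which encodes alpha1 (ENSMUSG00000050697.9, chr15:5143861-5181899, plus strand), had 1 read in replicate 1 and 10 in replicate 2, or 2.32 CPM (0.0588 to 12.9) and 15.9 CPM (7.61 to 29.2). The level in replicate 1 was thus within what a count of 0 allows. Prkaa2 took 18 of 19 alpha reads in replicate 1 (94.7%, 74.0 to 99.9) and 21 of 31 in replicate 2 (67.7%, 48.6 to 83.3). The intervals of the libraries overlapped, and that of replicate 2 reached an even split.

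The beta subunits were read mainly from Prkab1, which encodes beta1. Prkab1 (ENSMUSG00000029513.14, chr5:116013586-116024508, minus strand) had 54 reads (126 CPM, 94.3 to 164) and 62 reads (98.4 CPM, 75.5 to 126), with a mean of 112 ± 19.1 CPM (SD, n = 2). Prkab2, which encodes beta2 (ENSMUSG00000038205.12, chr3:97658193-97673812, plus strand), had 18 reads (41.8 CPM, 24.8 to 66.1) and 14 reads (22.2 CPM, 12.2 to 37.3), with a mean of 32.0 ± 13.9 CPM. Prkab2 thus made up 25% (15.5 to 36.6) and 18.4% (10.5 to 29.0) of the beta reads, below an even split in both libraries.

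Prkab1 was divided almost evenly between a pair of transcripts with the same coding sequence of 270 codons. Prkab1-201 had 23 and 26 reads and Prkab1-202 had 21 and 27. They differ in the 5′ untranslated region, where Prkab1-202 removes a further intron (chr5:116024260-116024364). The introns of Prkab1-201 are the last introns of Prkab1-202, so a shortened Prkab1-202 read cannot be told from Prkab1-201. Prkab1-203 and Prkab1-208, annotated as targets of nonsense-mediated decay, had 2 and 1 reads, all in replicate 2.

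Prkab2 was read mostly in models other than its annotated transcripts. Only 2 of 18 reads in replicate 1 (11.1%, 1.38 to 34.7) and 2 of 14 in replicate 2 (14.3%, 1.78 to 42.8) matched an annotated transcript. Incomplete splice matches, which hold a consecutive part of a known transcript's introns or of 1 exon, made up 72.2% (46.5 to 90.3) and 71.4% (41.9 to 91.6). All 13 of these reads in replicate 1 and 5 of the 10 in replicate 2 were a single model with all the coding introns of Prkab2-201 but without its first intron, in the 5′ untranslated region (chr3:97658370-97658588). The annotated first intron was removed in 2 and 1 reads, and a version with a donor 91 bases downstream, which the annotation lacks, in 1 read of each library. Whether the 13 and 5 reads kept that intron or began after it cannot be told apart, as model ends are not read ends: the model begins at chr3:97658214 in replicate 1 and at chr3:97658369 in replicate 2. All coding introns were present in 16 of 18 and 7 of 14 Prkab2 reads.

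**Figure D2:**
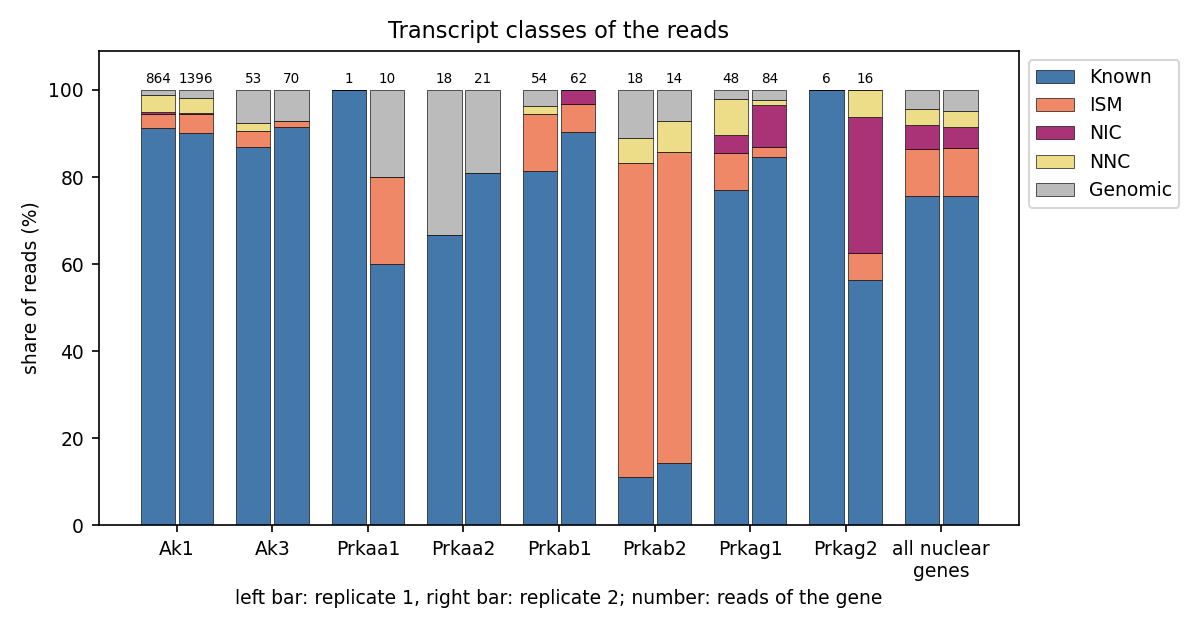
Share of reads (%) in each transcript class for each gene and for all annotated nuclear genes, with replicate 1 as the left bar, replicate 2 as the right bar, and the gene's reads above each bar. Known transcripts make up most of each bar apart from the Prkab2 pair, where incomplete splice matches (ISM) hold 72.2% and 71.4%.

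Over the 8 genes, Known transcripts held 88.1% (86.0 to 90.0) of the reads in replicate 1 and 88.7% (87.1 to 90.2) in replicate 2. Over all annotated nuclear genes the shares were 75.7% and 75.6%. Ak1 supplied most of the member reads, and its own shares were 91.2% and 90.2%. Apart from Ak1, Known shares ran from 11.1% and 14.3% for Prkab2 to 86.8% and 91.4% for Ak3 among genes that reached 10 reads in both libraries. Reads with a complete set of coding introns made up 94.4% (92.7 to 95.9) and 93.9% (92.5 to 95.1) of Ak1 reads, 86.8% and 91.4% for Ak3, 66.7% and 81.0% for Prkaa2, 81.5% and 85.5% for Prkab1, and 77.1% and 84.5% for Prkag1. Over the 8 genes, 29 intron series were found in both libraries, out of 46 in replicate 1 and 56 in replicate 2. Those shared series held 97.8% of the spliced reads in replicate 1 and 97.6% in replicate 2. Ak1 supplied 853 of 1036 of these spliced reads in replicate 1 and 1370 of 1628 in replicate 2. In replicate 2 the share was 56.3% for Prkag2, 75.0% for Prkaa1 and 87.5% for Prkab2, and at least 90.2% for each other gene. In replicate 1 it was 100% for each of those 3 genes, on few reads.

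The gamma subunits were read mainly from Prkag1, which encodes gamma1. Prkag1 (ENSMUSG00000067713.7, chr15:98812797-98831521, minus strand) had 48 reads (112 CPM, 82.3 to 148) and 84 reads (133 CPM, 106 to 165), with a mean of 122 ± 15.4 CPM (SD, n = 2). Prkag2, which encodes gamma2 (ENSMUSG00000028944.14, chr5:24862744-25100642, minus strand), had 6 reads (13.9 CPM, 5.12 to 30.4) and 16 reads (25.4 CPM, 14.5 to 41.2), with a mean of 19.7 ± 8.10 CPM. Prkag1 was 88.9% (77.4 to 95.8) and 84.0% (75.3 to 90.6) of their joint reads. Prkag3, the gamma3 gene of fast skeletal muscle, had 1 read in replicate 1 and 0 in replicate 2, within what a count of 0 allows.

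**Figure D3:**
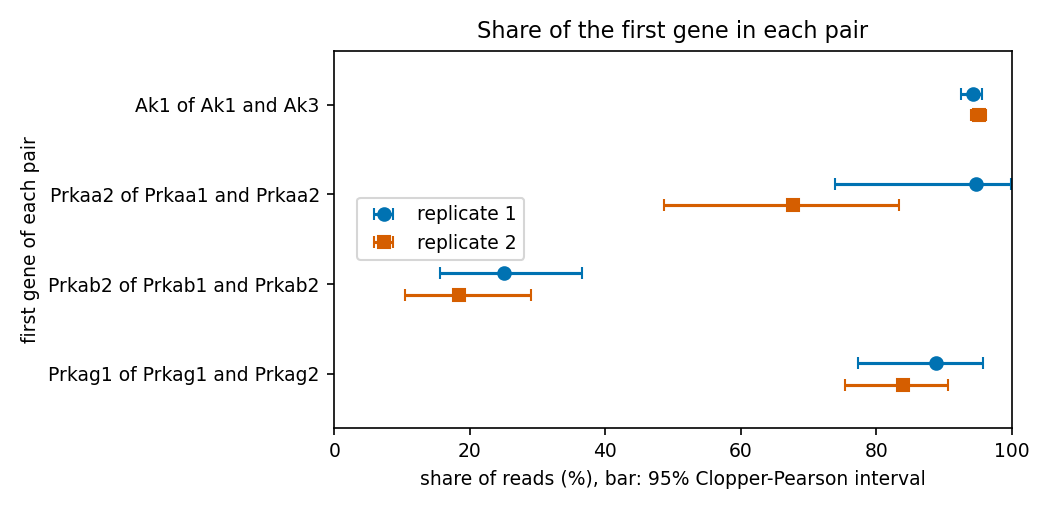
Share of reads (%) of the first gene in each pair, with 95% Clopper-Pearson intervals, in replicate 1 (circles) and replicate 2 (squares). Ak1, Prkaa2 and Prkag1 hold most of their pairs and Prkab2 a minority of its own, at 25% and 18.4%.

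Prkag1 was read mostly as Prkag1-201, a transcript of 12 exons and 1652 bases with 330 codons, which had 37 and 71 reads. A different first exon, which GENCODE gives to Prkag1-206, was joined to exon 2 in 1 read of replicate 1 and 8 of replicate 2. The first exon of Prkag1-201 was used in 40 and 71 reads. In replicate 2 those 8 reads formed a single 12-exon model that joined this exon to the remaining exons of Prkag1-201, a combination of annotated splice sites that M21 does not list. A further first exon, with a donor that GENCODE lacks, was joined to exon 2 (intron chr15:98825734-98831134) in 1 read of each library. In 2 reads of replicate 1 exon 7 began 2 bases downstream, again after an AG that repeats the bases before it.

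Prkag2 was read in 3 forms with separate starts, which differ in the N-terminal part of the protein. The long form, Prkag2-201 (566 codons), had 5 reads in replicate 1 and 3 in replicate 2. A middle form with the first exon of Prkag2-202 had 0 and 4, and the short form, Prkag2-203 (326 codons), had 1 and 6. The order of long and short was opposite in the libraries, a difference of a few reads that was not tested. All introns of the short form are also the last introns of the long form and of the middle form as read. A shortened long or middle read therefore cannot be told from the short form.

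The coding part of the first coding exon of each form is shown, from the GENCODE transcripts, because coding begins at a different point in each. The 31 bases of the short form lie within an exon that the long and middle forms also hold. Capitals mark the start codon. The exons lie on the minus strand at chr5:25100011-25100124 (long), chr5:24995262-24995355 (middle) and chr5:24908323-24908353 (short).
Prkag2-201: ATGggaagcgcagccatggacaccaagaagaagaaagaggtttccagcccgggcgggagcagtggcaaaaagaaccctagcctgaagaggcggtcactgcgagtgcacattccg
Prkag2-202: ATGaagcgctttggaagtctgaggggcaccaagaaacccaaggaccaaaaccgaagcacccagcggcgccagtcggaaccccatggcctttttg
Prkag2-203: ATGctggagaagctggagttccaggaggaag
The middle form as read differed from the annotated Prkag2-202 by 3 bases at the start of exon 4, where the acceptor lay after a CAG. The line shows the end of exon 3 and the start of exon 4 of Prkag2-202, whose exon 4 begins at chr5:24889188, with the CAG left out by the reads in capitals.
Prkag2 exon 3 to exon 4: agttccaggaggaagCAGaagactcagaaa
Over all forms, the shorter exon was used in 6 reads of replicate 1 and 15 of replicate 2, and the longer one in 0 and 1.

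Promoter windows of the 3 starts are printed from RefSeq (GRCm38.p6, minus strand), again to the 30th base after the start, because models with each of these first exons were read. They lie within chr5:25100593-25100892 (long), chr5:24995704-24996003 (middle) and chr5:24908460-24908759 (short). The short window is set on the start of Prkag2-210 at chr5:24908509. Prkag2-203 starts at chr5:24908469, downstream of the printed bases. Capitals mark GGGCGG and CCAAT on either strand.
Prkag2 long: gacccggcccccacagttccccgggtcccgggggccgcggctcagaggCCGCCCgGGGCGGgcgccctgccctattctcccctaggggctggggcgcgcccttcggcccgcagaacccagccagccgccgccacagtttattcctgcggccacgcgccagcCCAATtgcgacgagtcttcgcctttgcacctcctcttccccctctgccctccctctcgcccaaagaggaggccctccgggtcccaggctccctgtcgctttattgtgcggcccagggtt
Prkag2 middle: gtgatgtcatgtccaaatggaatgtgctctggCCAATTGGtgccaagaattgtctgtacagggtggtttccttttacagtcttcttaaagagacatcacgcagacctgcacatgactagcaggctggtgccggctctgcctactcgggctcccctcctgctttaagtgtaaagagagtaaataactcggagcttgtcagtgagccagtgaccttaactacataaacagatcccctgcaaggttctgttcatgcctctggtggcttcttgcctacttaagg
Prkag2 short: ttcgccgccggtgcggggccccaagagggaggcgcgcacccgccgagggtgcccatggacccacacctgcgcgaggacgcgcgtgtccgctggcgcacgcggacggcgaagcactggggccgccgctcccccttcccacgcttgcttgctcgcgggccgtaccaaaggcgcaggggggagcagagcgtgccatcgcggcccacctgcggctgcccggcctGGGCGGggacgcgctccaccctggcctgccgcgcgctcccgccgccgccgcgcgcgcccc
The windows differed in base composition. The short window had a GC content of 79.3% and 45 CpG dinucleotides, the long one 69.7% and 25, and the middle one 50.3% and 6. GGGCGG was found 2 times in the long window, 1 time in the short and not in the middle one. CCAAT was found 2 times in the middle window, where the matches on opposite strands overlap, and 1 time in the long one. CCAAT was present in 37.4% of all windows.

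**Figure D4:**
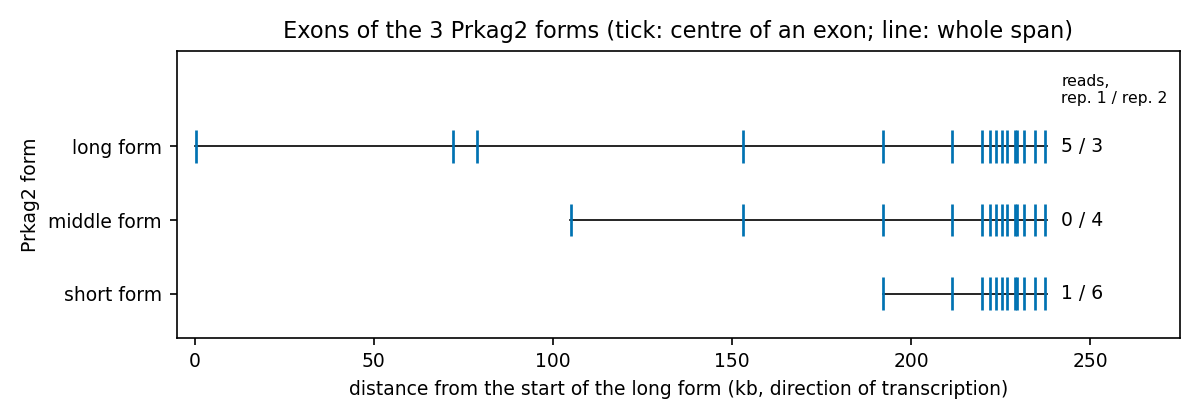
Exons of the 3 Prkag2 forms as ticks at each exon's centre along the distance (kb) from the start of the long form, with reads in replicate 1 and replicate 2 at the right. The forms share the exons at the right-hand end and begin at separate points, and no form has more than 6 reads in a library.

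Set in order of mean level, Ak1 was 17.2-fold above the next gene, Prkag1, and their intervals did not overlap in either library. Prkag1, Ak3 and Prkab1 followed within 1.05-fold of their neighbours, with overlapping intervals. A second gap, 2.98-fold between Prkab1 and Prkaa2, was again wider than the intervals in both libraries. Prkaa2, Prkab2, Prkag2 and Prkaa1 came last, and the intervals of neighbours in that order overlapped in both libraries. With Known transcripts only, over the unchanged total of all classes, Prkab2 fell to 3.91 CPM and was last, below Prkaa1 at 5.92 CPM. The 6 AMPK genes summed to 333 ± 5.93 CPM (SD, n = 2). Alpha subunits took 13.1% (8.08 to 19.7) and 14.98% (10.4 to 20.6) of these reads, beta subunits 49.7% (41.3 to 58.1) and 36.7% (30.1 to 43.7), and gamma subunits 37.2% (29.4 to 45.7) and 48.3% (41.3 to 55.3). Alpha reads were therefore fewer than beta or gamma reads in both libraries, with intervals that did not meet. The leading transcripts were 4655 bases long for Prkaa1 and 7969 for Prkaa2, the longer of them in the gene with more reads. They were 2089 bases for Prkab1, 5006 for Prkab2, 1652 for Prkag1 and 3331 for Prkag2. In these beta and gamma pairs the gene with fewer reads had the longer transcript. The part of transcript length in these shares was not tested.

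Members of a pair were not close copies of each other. Over the aligned coding bases of their leading transcripts, Prkaa1 and Prkaa2 were 71.2% identical, Prkab1 and Prkab2 73.3%, Prkag1 and Prkag2 69.9%, and Ak1 and Ak3 64.6%. How reads with more than 1 possible origin were assigned is not given in the sources used here.

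None of the 8 genes differed between the libraries at an adjusted p under 0.05 with at least a 2-fold difference, a call made for 0.322% of the 8086 genes tested, and 0 of 8 had an adjusted p under 0.05 at any fold, against 0.693% of tested genes. With spike-in reads as the denominator, Ak1 passed the p threshold, though not the fold (log2 ratio -0.41, adjusted p = 5.85e-09 by the exact binomial test). The test was an exact two-sided binomial test of the reads given the library totals, with Benjamini-Hochberg adjustment. It compares these 2 libraries and not conditions. All 8 genes had the 10 summed reads needed. Ak1 and Prkaa1 had an unadjusted p under 0.05, which 7.11% of tested genes reached. Ak1 was 1.10-fold higher in replicate 2 (95% interval 1.01 to 1.20, p = 0.0232, adjusted p = 0.55 by the exact binomial test). Prkaa1, at 1 read against 10, was 6.83-fold higher in replicate 2, with an exact interval from 0.972 to 296 (p = 0.0344, adjusted p = 0.636 by the exact binomial test). Prkab2 leaned the other way, 1.88-fold higher in replicate 1 (0.885 to 4.09, adjusted p = 0.775 by the same exact test). The median log2 ratio of replicate 1 over replicate 2 was 0.005 for the 8 genes and 0.0106 for all tested genes, and 4 of the 8 were lower in replicate 1.

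**Figure D5:**
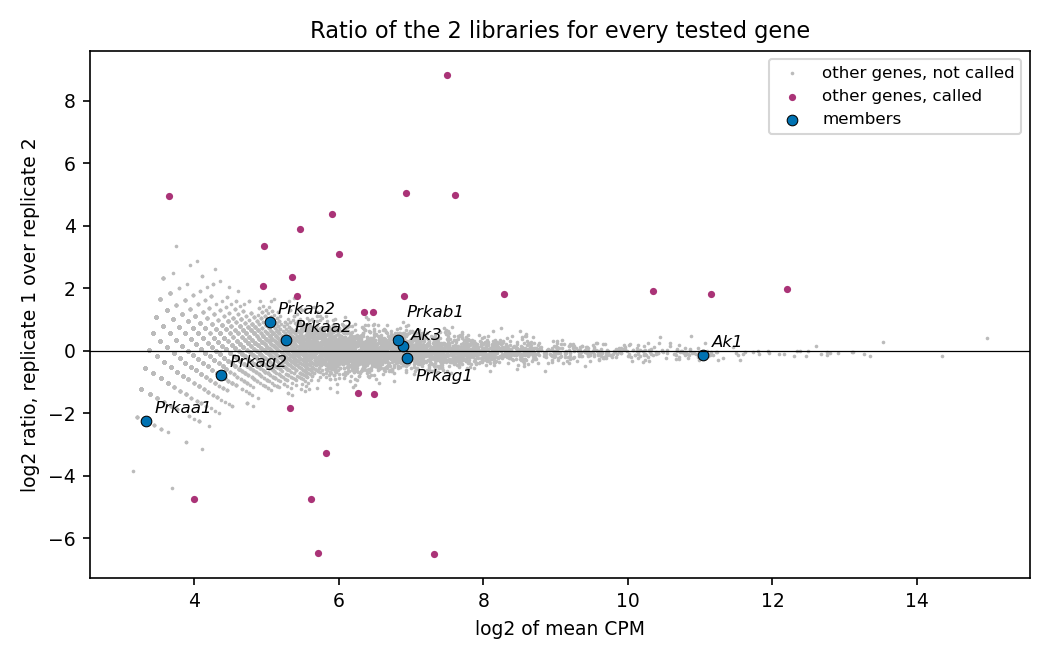
Log2 ratio of replicate 1 over replicate 2 against log2 of mean CPM for the 8086 tested genes, with called genes in purple and the 8 members in blue. The members lie within the grey cloud of genes that were not called, and the spread of the cloud narrows to the right, where reads are more numerous.

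Globin and other red cell RNA differed between the libraries, and Ak1 is also a red cell enzyme. The 8 erythroid markers summed to 13859 CPM in replicate 1 and 3712 CPM in replicate 2. Of the 6 that were read, Hba-a1, Hba-a2, Hbb-bs, Hbb-bt and Alas2 were called higher in replicate 1. Bpgm was not called, and the membrane marker Slc4a1 had no read. Ak1 had the opposite direction, 2008 against 2216 CPM. The part of red cell RNA in the Ak1 level was not tested. Among markers of fat, Car3 was called lower in replicate 1 (48.8 against 129 CPM), and no marker of cardiomyocytes, endothelium, fibroblasts, smooth muscle, leukocytes or skeletal muscle was called. Below the fold needed for a call, 3 of these had an adjusted p under 0.05 by the exact binomial test: Myh6 (36490 against 27652 CPM) and Col3a1, a fibroblast collagen (442 against 287 CPM), were higher in replicate 1, and Pln (6559 against 7258 CPM) was lower. Of the 9 cardiomyocyte markers, 8 were lower in replicate 1, all except Myh6. All 7 endothelial markers except Tek (39.5 against 39.7 CPM) were higher in replicate 1, none at an adjusted p under 0.05.

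The share of the leading transcript could be compared in the 4 members that reached 20 reads in both libraries. Fisher's exact test with adjustment over 3254 genes called none of them, and it called 0.0307% of all genes. The share of Ak1-202 was 1.09 points higher in replicate 1 and that of Prkab1-201 was 0.66 points higher. Ak3-201 and Prkag1-201 had differences of -4.64 and -7.44 points. The adjusted p was 1 for each of the 4 by this exact test.

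Genes that act with these enzymes were taken from lists by role. None of them was called in the same comparison, a call made for 0.322% of the 8086 genes tested. All 9 upstream kinases and their partners were read. Cab39, a scaffold of the LKB1 complex, was at 121 ± 29.5 CPM, Stradb at 115 ± 1.35 CPM and Tab1 at 65.0 ± 6.65 CPM, while Stk11, which encodes LKB1 itself, had 4 and 10 reads (12.6 ± 4.65 CPM). Camkk2, the calcium-dependent upstream kinase, had 3 and 2 reads. Of these, 6 had enough reads for the test and none had an unadjusted p under 0.05, which 7.11% of all tested genes reached.

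Regulators and phosphatases were led by the catalytic subunits Ppp2ca (493 ± 32.9 CPM), Ppp1cb (461 ± 17.3 CPM) and Ppp1ca (298 ± 52.8 CPM). Of 15 in this list, 14 were read, 12 were tested and 3 had an unadjusted p under 0.05, against 7.11% of all tested genes. Sesn1, a stress-induced sestrin, was at 220 ± 21.5 CPM and Sesn2 had no read. AMPK substrates and effectors were all read, 20 of 20, and 17 were tested with none at an unadjusted p under 0.05. Mff, a receptor for mitochondrial fission, was highest at 202 ± 9.01 CPM, before Tsc2, an inhibitor of mTORC1 signalling (130 ± 10.5 CPM), and Becn1, an autophagy protein (111 ± 2.46 CPM). Between the acetyl-CoA carboxylases, Acacb, the mitochondrial form, had 40 and 58 reads and Acaca, the cytosolic form, had 2 and 3.

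Kinases related to AMPK were led by Snrk at 189 ± 4.35 CPM, Mark3 at 93.9 ± 18.3 CPM and Mark2 at 63.3 ± 22.2 CPM. Brsk1 and Brsk2, kinases of neurons, had no read. Of 13 in the list, 11 were read and 8 tested, none with an unadjusted p under 0.05. Enzymes of adenine nucleotide metabolism were led by Adk, adenosine kinase (292 ± 8.90 CPM), Adssl1, the muscle adenylosuccinate synthase (280 ± 2.41 CPM), and Adsl, adenylosuccinate lyase (132 ± 6.15 CPM). Ampd1, the AMP deaminase of skeletal muscle, had no read, and Ampd3, another AMP deaminase, had 9 and 10. Of 14 in the list, 13 were read, 10 tested and 2 had an unadjusted p under 0.05, against 7.11% of all tested genes. Nt5c1a, the cytosolic 5′-nucleotidase that makes adenosine from AMP, had 1 read in replicate 1 and 16 in replicate 2, with an adjusted p of 0.201 by the exact binomial test.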

How the data were processed

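The authors deposited raw read counts per transcript model, 1 table per library, as whole numbers, not normalized or pooled. Per the text files deposited beside them, reads had been aligned to mm10 and compared with GENCODE M21. The deposited annotation files name TALON as the source of models that GENCODE lacks. The aligner, read correction and program versions are not given in the sources used here. Lengths belong to models and not to reads, per the file headers.

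For each gene, counts of every class were added up, and CPM used the total of annotated nuclear genes, 430251 and 629896 reads, without spike-in and mitochondrial reads. Introns and model ends came from the deposited annotation files. Libraries were compared by exact binomial and Fisher tests (scipy 1.17.1), called at an adjusted p under 0.05 with at least 2-fold or 10 points, for genes with at least 10 summed reads or 20 reads in each library. Log2 ratios had 0.5 reads added. Both tests were checked on simulated data. Alternatives included edgeR 4.0.16 and DESeq2 1.42.0 scaling, applied to the deposited counts. Coding sequences were aligned with biopython 1.88.

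The 8 genes and the gene lists were chosen with earlier results of these data known. All 8 genes were named, with the 3 highest genes of each functional list, further adenylate kinases, Prkag3 and, for transcripts, those with at least 3 summed reads or, if not annotated, those found in both libraries; Stk11, Camkk2, Sesn1, Sesn2, Acaca, Acacb, Brsk1, Brsk2, Ampd1, Ampd3, Nt5c1a and rarer transcripts were named after their values were seen. Genes with the most similar pattern were not sought, since 2 libraries of 1 group give no pattern. Some items of the lists are not reported here.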

Additional observations from a re-analysis of the deposited data

Results flagged for a closer look

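Reads assigned to other loci across the spans of these genes are reported here because they lie outside the comparisons and exceed the 3 reads that a count of 0 allows. An unannotated antisense locus over the last exon of Ak1 had 10 reads in replicate 1 and 11 in replicate 2. Its single-exon model lies at chr2:32634134-32634366 in replicate 2 and is only 1 base wide, at chr2:32634269, in replicate 1. That position is also the 3′ end of 3 Ak1 models with unannotated splice sites in replicate 1, so the extent of deposited models does not give the extent of reads. Cdc37l1, which overlaps Ak3 on the opposite strand, had 6 reads in replicate 2 and 2 in replicate 1. Unannotated antisense models over Prkaa2 had 4 reads in replicate 1 and 2 in replicate 2. The source of these reads was not tested.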

How the results depend on the processing

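No paired analysis was possible because the series holds 1 group. In the 8 other settings tried for the comparison of libraries, none of the 8 genes was called where it was tested. Prkaa1 and Prkab2 had too few reads for the test with Known transcripts only, as did Prkaa1 without Genomic models. With at least 50 summed reads, only Ak1, Ak3, Prkab1 and Prkag1 were tested. Ak1 passed the p threshold with spike-in reads as the denominator but missed the fold (log2 ratio -0.41, adjusted p = 5.85e-09 by the exact binomial test). Its adjusted p by the same test was 0.203 to 0.912 in the other 7 settings. The number of called genes, 26 in the main setting, was 70 with spike-in reads as the denominator, which shifted the median log2 ratio of all genes by -0.27, and 15 with Known transcripts only. The cause was not tested. Ak3, at a log2 ratio of 0.15 in the main setting, came to -0.12 with spike-in reads (adjusted p = 0.987 by the exact binomial test), a move equal to that shift of all genes. Prkag2, at -0.79, came to 0.0003 with Known transcripts only (adjusted p = 1 by the same exact test). The mean level of Ak1 was 1915 CPM with Known transcripts only, and that of Prkab2 fell from 32.0 to 3.91 CPM. The summed AMPK level was 320.2 CPM over all mouse reads, 246 CPM with Known transcripts only and 313 CPM without Genomic models. With Known transcripts only or without Genomic models, these levels kept the total of all classes as the denominator, so they could only stay or fall. The comparison of libraries in those settings used the totals of the classes kept. The Prkab2 share of beta reads fell to 3.90% with Known transcripts only, since few of its reads are of that class. In those class settings no other share of an isogene pair moved by more than its SD over the libraries, but n was 2. Leaving out 1 of 2 libraries cannot move a mean by more than that SD, so it gives no check. The Prkaa2 share of alpha reads was 67.7% without replicate 1 and 94.7% without replicate 2. Depth limits the scarce genes: Prkaa1 and Prkag2 had at most 16 reads in a library, so the shares of their forms have wide intervals.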
